A study of Homo sapiens with 12 samples.

Results

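The AP-1 transcription factors described here are 10 genes, given by symbol: the JUN family (JUN, JUNB, JUND), the FOS family (FOS, FOSB, FOSL1, FOSL2) and the related basic leucine zipper genes ATF3, BATF3 and MAFF. All 10 were found among the 28100 genes of the deposited table, and all 10 passed the filter on low counts that left 13116 genes for testing. RNA sequencing was done on MV3, an established human melanoma cell line grown in 12-well plates. After 3 h in RPMI with 1% of serum freed of vesicles, each well was treated for 24 h. M1 EV, M2 EV and M0 EV wells received 1e10 particles of extracellular vesicles (EVs), made by macrophages derived from the human monocytic leukaemia line THP-1 after 48 h of polarization to the named state. Ctrl wells received PBS. There were 3 libraries in each of the 4 groups, with gene totals of 9694843 to 14379738 counts. The polarizing agents are not named in the labels. Nor do the labels say whether the 3 libraries came from separate cultures or vesicle preparations, so p-values measure the spread between these libraries, which may be technical.

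AP-1 is a dimer of basic leucine zipper proteins that binds the DNA sequence TGANTCA. JUN proteins can pair with each other, whereas FOS proteins need a JUN partner. ATF proteins shift binding towards the longer, cyclic AMP response element form TGANNTCA. Small MAF proteins such as MAFF lack an activation domain and pair with other factors, among them the NRF proteins. MAP kinases raise AP-1 both by inducing its genes within minutes to hours and by phosphorylating its proteins. In melanoma, JUN and FOSL1 are known for high levels in dedifferentiated, invasive cells.

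Of 18 melanocyte and melanoma markers 8 passed the filter, and in M1 EV relative to Ctrl 3 of them rose (MCAM, PAX3 and MC1R) and 3 fell (SOX9, AXL and TFAP2A) by edgeR's test. The summed level of the 18 markers was 1464 to 1542 CPM (counts scaled to the total of the library) in M1 EV libraries, 1715 to 1746 in M2 EV, 1744 to 1789 in M0 EV and 1715 to 1768 CPM in Ctrl, with AXL, a receptor kinase of dedifferentiated melanoma, at means of 1038 CPM in M1 EV and 1311 CPM in Ctrl. The part of this lower sum in the AP-1 results was not tested. MV3 cells held the melanoma surface markers CSPG4 and MCAM at means of 128.6 to 135.3 and 81.1 to 104.9 CPM across the 4 groups. The pigment cell genes TYR, DCT and S100B were at 0 in all 12 libraries, and SOX10 had 2 counts in all. Macrophage RNA was little seen: of 21 macrophage markers 3 passed the filter (CD68, CTSS and CORO1A), and CD163, TYROBP and C1QA were at 0 everywhere. The summed level of the 21 markers was 72.6 to 74.7 CPM in M1 EV libraries, 62.4 to 65.9 in M2 EV, 61.4 to 62.8 in M0 EV and 58 to 65.6 CPM in Ctrl. Without CD68 and CTSS the sum was 2.75 to 4.03 CPM in M1 EV and 3.4 to 3.64 CPM in Ctrl libraries. The 2 lysosomal genes averaged 66.9 (CD68) and 3.25 (CTSS) CPM in M1 EV and 56.7 and 0.805 CPM in Ctrl, and their part in the results on AP-1 genes was not tested.

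The family was led by FOSL1 and JUN. Compared per length, as CPM per kilobase of transcript over all 12 libraries, FOSL1 averaged 185.8 ± 7.3 (SD, n = 12 libraries). JUN averaged 77.6 ± 2.23, JUND 43.1 ± 2.54 and FOSL2 29.1 ± 1.0 CPM per kilobase. The ranges of these 4 genes did not overlap each other, so their order held in every library. JUNB followed at 11.1 to 28.3 CPM per kilobase, with its highest libraries inside the range of FOSL2 (27.9 to 31.6), and MAFF at 9.88 to 15.7, overlapping with JUNB. BATF3 (2.36 to 3.69) and ATF3 (1.61 to 2.79) overlapped each other, as did FOS (0.553 to 1.18) and FOSB (0.282 to 0.779 CPM per kilobase). FOS and FOSB, the classical immediate-early members, had only 12 to 27 and 12 to 30 counts a library at this 24 h time, so their values carry the widest counting error. The order of levels is a description over libraries of all 4 groups, and it leaves the groups to be compared gene by gene.

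**Figure D1:**
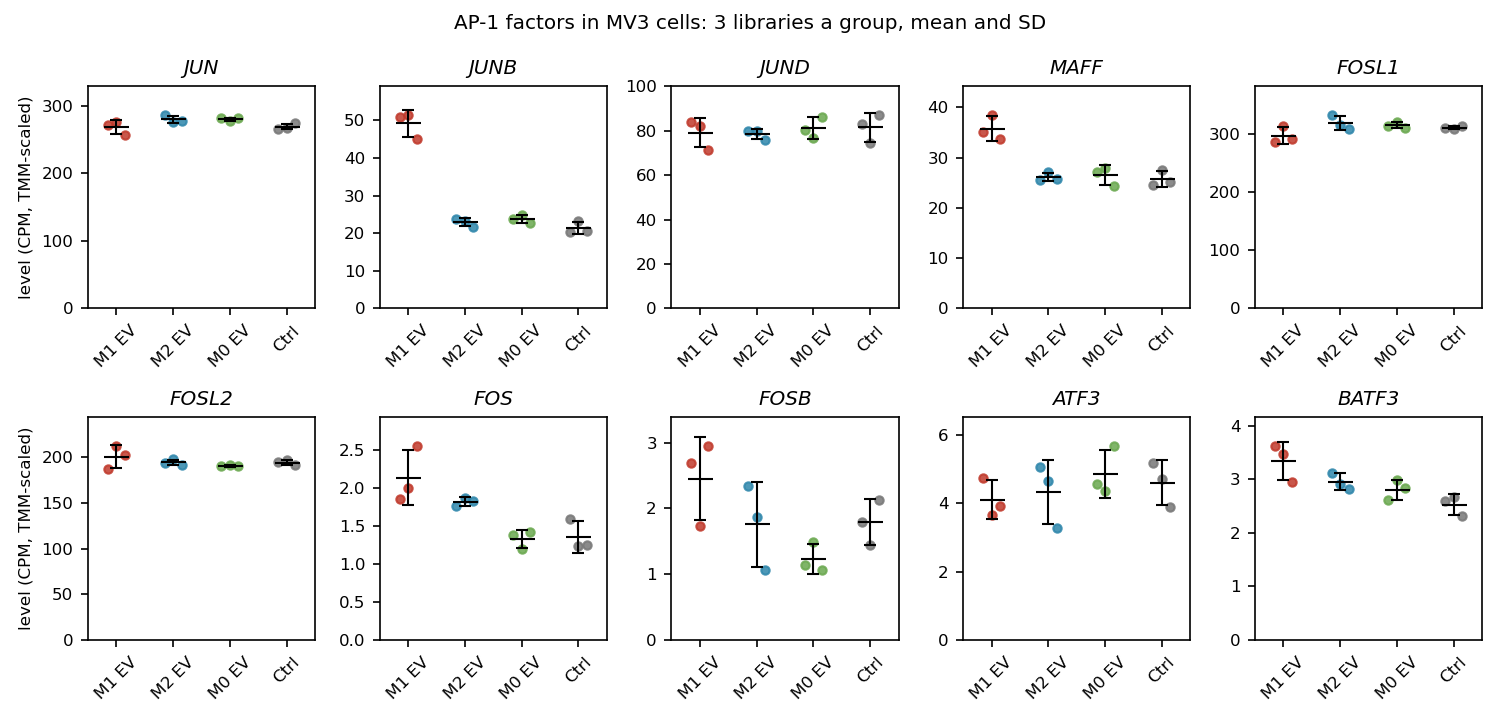
Level of each AP-1 factor in the 12 libraries, in TMM-scaled CPM on axes that start at 0; points are libraries, and bars give the mean and SD of 3 libraries a group. The 3 M1 EV libraries of JUNB (45.1 to 51.4 CPM) and of MAFF (33.6 to 38.5 CPM) lie above all other libraries, while JUN, JUND, FOSL1 and FOSL2 show groups that overlap or lie close together.

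M1 EV wells had higher RNA levels of JUNB and MAFF than PBS wells, while the abundant members FOSL1, JUN, JUND and FOSL2 did not pass the test. JUNB, a JUN protein known for weaker activation than JUN and for restraining it in some settings, was 2.31-fold higher in M1 EV. MAFF was 1.39-fold higher. A gene was called at an edgeR adjusted p (quasi-likelihood test, Benjamini-Hochberg over 13116 genes) below 0.05. By that rule 2 of the 10 members rose and 0 fell, or 20% of members, beside 28.1% of all genes tested (14.3% higher and 13.7% lower). That share is below the background, so the count is not a result about the family. The members' median log2 fold change was 0.23, beside 0.00077 over all genes tested. This median falls between FOSL2 (0.049) and BATF3 (0.41), neither of which was called, so it does not show a rise of the whole family. Poly(A) RNA of a well's cells was sequenced together, and levels are relative to the library. A change in level per cell and a change in the share of cells that express a gene therefore cannot be told apart.

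JUNB (transcript NM_002229, chr19:12791486-12793315, GRCh38.p14) stood at 51, 51.4 and 45.1 CPM in M1 EV libraries. It stood at 23.8, 23.1 and 21.7 CPM in M2 EV, at 23.9, 24.9 and 22.7 in M0 EV, and at 20.2, 23.1 and 20.6 CPM in Ctrl libraries. The 3 M1 EV libraries were above the other 9 with a wide gap, and the ranges of the other 3 groups overlapped. Means were 49.2 ± 3.54 CPM in M1 EV, 22.9 ± 1.08 in M2 EV, 23.8 ± 1.09 in M0 EV and 21.3 ± 1.58 CPM in Ctrl (SD, n = 3 libraries each). The log2 fold change of M1 EV over Ctrl was 1.21 ± 0.067 (SE), with a 95% interval of 1.07 to 1.35 and an edgeR adjusted p of 1.49e-17. M1 EV was also above the vesicles of the other 2 states: the log2 difference was 1.11 ± 0.063 against M2 EV (edgeR adjusted p = 3.7e-17) and 1.05 ± 0.064 against M0 EV (edgeR adjusted p = 3.27e-16). Both of these test directly that the response to M1 EV differed from the response to the other vesicles. HOOK2, on the opposite strand, shares 259 exon bases with JUNB, and the sources used here do not say if strand was used in counting. HOOK2 had 1147 counts over the 12 libraries against 3838 for JUNB, and its log2 fold change of M1 EV over Ctrl was 0.0069 ± 0.13 (edgeR adjusted p = 0.979).

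MAFF (transcript NM_001161572, chr22:38201994-38216511, GRCh38.p14) stood at 35.1, 38.5 and 33.6 CPM in M1 EV libraries. It stood at 25.6, 27.1 and 25.8 CPM in M2 EV, at 27.2, 28 and 24.3 in M0 EV, and at 24.6, 27.5 and 25.2 CPM in Ctrl libraries. Again the 3 M1 EV libraries were above all 9 others, by less than for JUNB, and the other groups overlapped. Means were 35.7 ± 2.49 CPM in M1 EV and 25.8 ± 1.55 CPM in Ctrl (SD, n = 3 libraries each). The log2 fold change was 0.48 ± 0.068 against Ctrl (95% interval 0.34 to 0.61, edgeR adjusted p = 7.32e-07). It was 0.45 ± 0.065 against M2 EV (edgeR adjusted p = 1.05e-06) and 0.44 ± 0.067 against M0 EV (edgeR adjusted p = 2.69e-06). The 3 comparisons share the M1 EV libraries and are not independent of each other. The neighbouring gene TMEM184B overlaps MAFF by 117 bases on the opposite strand, with 0 shared exon bases, and its log2 fold change of M1 EV over Ctrl was 0.12 ± 0.044 (edgeR adjusted p = 0.0345).

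JUNB and MAFF moved in the same direction, so the 250 bases before their annotated starts are shown, with JUN, which did not pass the test, beside them. The sequences are RefSeq's for GRCh38.p14, written 5′ to 3′ in the direction of the gene. MAFF has 2 annotated starts, JUN lies on the minus strand, and the rest lie on the plus strand. The windows are chr19:12791236-12791485 for JUNB, chr22:38201744-38201993 and chr22:38202770-38203019 for the first and second start of MAFF, and chr1:58784048-58784297 for JUN. Capitals mark a match to TGANNTCA, or, in the second MAFF window, to the NF-kB motif read on the other strand.
JUNB: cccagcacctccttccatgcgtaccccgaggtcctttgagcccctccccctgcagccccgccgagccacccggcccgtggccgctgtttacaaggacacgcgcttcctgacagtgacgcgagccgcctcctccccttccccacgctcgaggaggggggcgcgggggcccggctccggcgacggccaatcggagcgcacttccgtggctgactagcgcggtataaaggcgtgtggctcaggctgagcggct
MAFF first start: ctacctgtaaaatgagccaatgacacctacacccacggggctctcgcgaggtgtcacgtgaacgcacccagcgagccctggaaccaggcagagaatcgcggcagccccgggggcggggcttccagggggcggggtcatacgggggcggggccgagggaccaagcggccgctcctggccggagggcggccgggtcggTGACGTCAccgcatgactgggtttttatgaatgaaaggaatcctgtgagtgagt
MAFF second start: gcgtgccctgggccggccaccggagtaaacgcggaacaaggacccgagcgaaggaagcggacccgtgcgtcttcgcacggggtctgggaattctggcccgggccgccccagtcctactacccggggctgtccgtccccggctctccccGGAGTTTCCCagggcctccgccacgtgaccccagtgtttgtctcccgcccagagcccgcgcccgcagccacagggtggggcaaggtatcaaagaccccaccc
JUN: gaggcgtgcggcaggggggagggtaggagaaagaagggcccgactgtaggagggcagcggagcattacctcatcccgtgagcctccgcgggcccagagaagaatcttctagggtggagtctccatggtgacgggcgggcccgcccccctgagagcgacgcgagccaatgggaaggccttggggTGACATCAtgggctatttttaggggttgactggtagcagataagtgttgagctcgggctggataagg
Neither TGANTCA nor the STAT motif TTCNNNGAA was present in a window of the 8 members in the promoter table (10 windows in all, with FOSL1 and BATF3 not among them), searched on both strands, and each was present in 6.57% of the 35116 windows of that length in the table. TGANNTCA, which cannot match at the same start as TGANTCA, was present for 4 of the 8 members (JUN, JUND, ATF3 and MAFF), against 10.1% of all windows. ATF3 and MAFF had 2 windows each and counted if either matched, so shares of members and of windows are not like for like. In JUN the letters were TGACATCA, 67 to 60 bases before the start, and in the first MAFF window TGACGTCA, 54 to 47 bases before it. JUND held TGACGTCA and TGAGCTCA, and ATF3 held TGACATCA. The NF-kB motif was found for MAFF alone among the 8 members and in 5.21% of all windows, and the CArG box, the site of serum response factor, for none of the 8 and in 1.16% of all windows. No capitals appear in the JUNB window because none of the 5 motifs was found there. A match is a description of letters, and binding was not measured.

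The other JUN genes did not pass the test. JUN, which can pair with FOS proteins, stood at 272.5, 276.8 and 257.3 CPM in M1 EV libraries, against 266.5, 267.7 and 274.4 CPM in Ctrl libraries. These ranges overlapped, and the log2 fold change was -0.0038 ± 0.034, with a 95% interval of -0.073 to 0.066 (edgeR adjusted p = 0.953). The JUN libraries of M2 EV (276.4 to 286.6 CPM) and M0 EV (277.1 to 281.6 CPM) all lay above Ctrl. Their log2 fold changes over Ctrl were 0.056 ± 0.034 and 0.055 ± 0.034 (edgeR adjusted p = 0.905 and 0.999). M1 EV libraries all lay below those of M0 EV (log2 fold change -0.059 ± 0.034, edgeR adjusted p = 0.222). JUND, known for steady expression in resting cells, stood at 84.1, 82 and 71.6 CPM in M1 EV, against 83, 74.6 and 87.1 CPM in Ctrl. These ranges of JUND overlapped, with a log2 fold change of -0.046 ± 0.056 and a 95% interval of -0.16 to 0.067 (edgeR adjusted p = 0.596). A change as large as that of JUNB or MAFF lies outside both intervals.

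The make-up of JUN family RNA therefore shifted in M1 EV wells. Of the summed CPM per kilobase of the 3 JUN genes, JUNB made up 18.2% to 18.8% in M1 EV libraries, 9.08% to 9.55% in M2 EV, 9% to 10.2% in M0 EV and 8.35% to 9.89% in Ctrl libraries. The M1 EV shares did not overlap with any other group. JUN made up 51.3% to 53.5% in M1 EV and 57.2% to 58.9% in Ctrl libraries, and JUND 28.3% to 30.1% in M1 EV and 31.2% to 34.5% in Ctrl. The family sum was 135.9 to 150.5 CPM per kilobase in M1 EV and 128.4 to 135.6 in Ctrl, ranges that nearly touched. It was 131.4 to 137 in M2 EV and 133.2 to 138.4 in M0 EV, both overlapping with M1 EV. Against Ctrl, the lower shares of JUN and JUND go with a higher sum and not with a called fall of either gene. Shares follow from the same levels that were tested above and add no separate test.

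**Figure D2:**
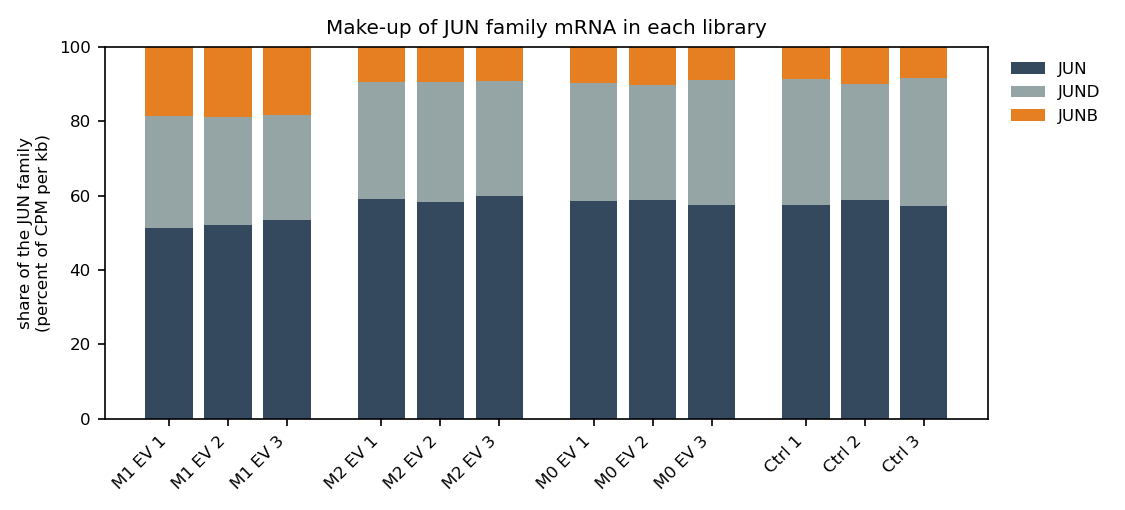
Share of JUN, JUND and JUNB in the summed CPM per kilobase of the JUN family, as stacked bars for each of the 12 libraries on an axis of 0 to 100 percent. The JUNB segment takes 18.2% to 18.8% in the 3 M1 EV libraries and 8.35% to 10.2% in the other 9.

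In the FOS family no member passed the test in M1 EV against Ctrl, and FOSL1 stayed the main member in every library. FOSL1, a stable FOS protein without the strong activation domain of FOS, stood at 285.6, 313.9 and 291 CPM in M1 EV libraries. It stood at 332.4, 315.3 and 307.8 CPM in M2 EV, at 313.8, 320 and 309.8 in M0 EV, and at 309.9, 308.6 and 312.9 CPM in Ctrl libraries. Of the 3 M1 EV libraries, 2 were the lowest of all 12, while the third lay among the others. The log2 fold change of M1 EV over Ctrl was -0.064 ± 0.036 (95% interval -0.14 to 0.0093, edgeR adjusted p = 0.198). FOSL2, a related FOS protein, stood at 187.1, 212 and 202.8 CPM in M1 EV, against 194.5, 196.7 and 191.3 CPM in Ctrl, and the M1 EV libraries lay on both sides of Ctrl. Its log2 fold change was 0.049 ± 0.038 (95% interval -0.029 to 0.13, edgeR adjusted p = 0.378). FOSL1 made up 84.4% to 85.3% of FOS family CPM per kilobase in M1 EV libraries and 85.9% to 86.3% in Ctrl libraries.

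FOS and FOSB were higher on average in M1 EV than in Ctrl, without passing the test. FOS, the rapid serum response gene, had 18, 22 and 26 counts in M1 EV libraries, or 1.86, 2.01 and 2.55 CPM. It had 1.76, 1.87 and 1.83 CPM in M2 EV, 1.38, 1.19 and 1.42 in M0 EV, and 1.6, 1.23 and 1.24 CPM in Ctrl libraries, which had 16, 12 and 14 counts. All 3 M1 EV libraries and all 3 M2 EV libraries were above every Ctrl library. The log2 fold change over Ctrl was 0.66 ± 0.27 for M1 EV (95% interval 0.11 to 1.2, edgeR adjusted p = 0.0639) and 0.43 ± 0.27 for M2 EV (95% interval -0.12 to 0.98, edgeR adjusted p = 0.905). FOSB had 26, 19 and 30 counts in M1 EV libraries, 24, 27 and 14 in M2 EV, 14, 15 and 12 in M0 EV and 18, 14 and 24 counts in Ctrl. Its M1 EV range overlapped with Ctrl, and the log2 fold change was 0.43 ± 0.25 (95% interval -0.087 to 0.94, edgeR adjusted p = 0.224). The full-length FOSB transcript and the one that encodes the truncated, more stable ΔFosB protein held 236.5 and 226 counts over the 12 libraries, and the counts do not resolve the reads they share.

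ATF3 and BATF3 were low and did not pass the test. ATF3, a stress-induced factor that represses as a homodimer, stood at 4.75, 3.65 and 3.92 CPM in M1 EV libraries, against 5.2, 4.73 and 3.91 CPM in Ctrl libraries. The ranges overlapped, and the log2 fold change was -0.17 ± 0.18 (95% interval -0.52 to 0.19, edgeR adjusted p = 0.539). BATF3, a JUN partner best known for its part in dendritic cell development, stood at 3.61, 3.47 and 2.94 CPM in M1 EV, against 2.6, 2.67 and 2.31 CPM in Ctrl. Its M1 EV libraries lay above the Ctrl libraries, with a log2 fold change of 0.41 ± 0.21 (95% interval -0.015 to 0.83, edgeR adjusted p = 0.15). The M2 EV libraries of BATF3, at 2.818 to 3.125 CPM, lay above Ctrl too. Its M1 EV range overlapped with M2 EV and with M0 EV (2.605 to 2.981 CPM). At these counts, changes of the size of MAFF's were within the intervals of FOS, FOSB and BATF3.

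**Figure D3:**
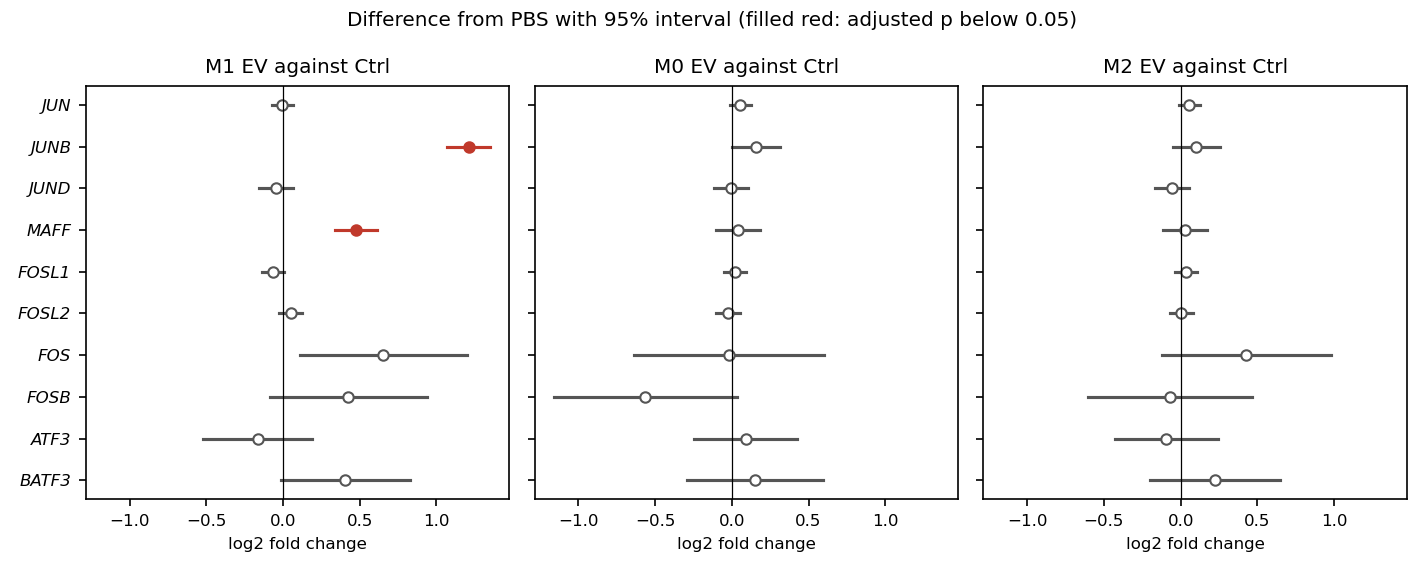
Log2 fold change of each AP-1 factor against PBS with its 95% interval, for M1 EV, M0 EV and M2 EV; filled red points have an edgeR adjusted p below 0.05. JUNB (1.21) and MAFF (0.48) are filled in the M1 EV panel, no point is filled in the other panels, and the low-count genes FOS, FOSB, ATF3 and BATF3 have the widest intervals.

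Vesicles of M0 and M2 macrophages gave no called AP-1 factor. In M2 EV against Ctrl 0 of 10 members passed edgeR's test, beside 0.0457% of all genes (0.0152% higher and 0.0305% lower), and 0 had an unadjusted p below 0.05, beside 6.21% of all genes. For M0 EV 0 of 10 passed against Ctrl, beside 0.0152% of all genes (0.00762% higher and 0.00762% lower), and 1, JUNB, had an unadjusted p below 0.05, beside 5.07% of all genes. DESeq2 called 0 members in both. In M2 EV against Ctrl it gave many genes no adjusted p, among them CEBPB (mean 52.8 CPM in M2 EV) and PLAUR (93 CPM). Genes without one were counted as not called, so for members at like or lower levels this 0 may not come from a test. The log2 fold change of JUNB was 0.1 ± 0.076 in M2 EV (95% interval -0.053 to 0.26, edgeR adjusted p = 0.951) and 0.16 ± 0.077 in M0 EV (95% interval 0.0031 to 0.32, edgeR adjusted p = 0.965). That of MAFF was 0.026 ± 0.07 in M2 EV (95% interval -0.12 to 0.17, edgeR adjusted p = 0.986) and 0.039 ± 0.072 in M0 EV (95% interval -0.11 to 0.19, edgeR adjusted p = 0.999). All 3 vesicle groups were set against the same Ctrl libraries. Between M2 EV and M0 EV 0 of 10 members passed edgeR's test, beside 0% of all genes, with 0 at an unadjusted p below 0.05 (3.41% of all genes) and 0 by DESeq2.

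Set against the other vesicles, M1 EV gave further calls for FOS family genes. Against M0 EV 3 members rose and 0 fell, or 30% of members beside 25.3% of all genes tested (12.5% higher and 12.8% lower): JUNB, MAFF and FOSB. FOSB was 1.99-fold higher, with 2.69, 1.73 and 2.94 CPM in M1 EV libraries against 1.14, 1.49 and 1.06 CPM in M0 EV libraries. The ranges did not overlap, and the log2 fold change was 0.99 ± 0.27 (95% interval 0.44 to 1.54, edgeR adjusted p = 0.00578). The Ctrl libraries, at 1.8, 1.44 and 2.13 CPM, lay between and overlapped with both. Against M2 EV 2 members rose and 1 fell, or 30% of members beside 24.6% of all genes tested (12.6% higher and 12% lower). Both shares of members are near the background, so these counts are not a result about the family. The one that fell was FOSL1, by 0.099 ± 0.036 on the log2 scale (95% interval -0.17 to -0.027, edgeR adjusted p = 0.0371), and its ranges overlapped. FOSL1 lost this call with DESeq2 (adjusted p = 0.0831), with transcripts summed (edgeR adjusted p = 0.0762) and without any of M1 EV 1, M1 EV 3, M2 EV 1, M2 EV 2 or Ctrl 1, where the edgeR adjusted p was 0.22, 0.142, 0.244, 0.068 and 0.0516.

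The 5 genes whose pattern over the 12 libraries was most like that of JUNB were MRTO4, STC1, IRAK2, SLC6A15 and NFKBIZ, by Pearson correlation of log2 CPM among 11833 genes. The coefficients were 0.992, 0.991, 0.99, 0.99 and 0.988. The 12 points fall into the 3 M1 EV libraries and the 9 others, so each value mostly says that the gene was higher in M1 EV. STC1, which encodes a secreted glycoprotein, averaged 80 CPM in M1 EV and 38 CPM in Ctrl. NFKBIZ, a nuclear co-regulator of NF-kB, averaged 25.4 CPM in M1 EV and 5.36 CPM in Ctrl, and IRAK2, a kinase of interleukin-1 receptor signalling, 31.3 CPM in M1 EV and 9.8 CPM in Ctrl.

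Other genes of the pathway were counted by list. Of 28 other basic leucine zipper genes 23 were tested, of which 7 rose and 1 fell in M1 EV relative to Ctrl (34.8%, beside 28.1% of all genes), with a median log2 fold change of 0.074. DESeq2 called 6 of these 23. CEBPD, which is induced in acute inflammation, averaged 45.3 ± 3.73 CPM in M1 EV and 20.1 ± 0.156 CPM in Ctrl (SD, n = 3 libraries each), a log2 fold change of 1.18 ± 0.07 (edgeR adjusted p = 1.35e-16). NFE2L3 rose by 0.98 ± 0.059 on the log2 scale (edgeR adjusted p = 1.93e-16) and CEBPB by 0.74 ± 0.057 (edgeR adjusted p = 2.05e-13). NFE2L1, which can pair with small MAF proteins such as MAFF, averaged 288.5 ± 10.3 CPM in M1 EV and 258.6 ± 7.71 CPM in Ctrl, a log2 fold change of 0.16 ± 0.037 (edgeR adjusted p = 0.00102).

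Among the kinases and phosphatases upstream of AP-1, few kinase genes moved. Of 26 MAP kinase genes 24 were tested, of which 1 rose and 2 fell in M1 EV relative to Ctrl (12.5%, beside 28.1% of all genes), with a median log2 fold change of -0.017. MAP3K2 rose by 0.27 ± 0.054 on the log2 scale (edgeR adjusted p = 0.000185). MAP2K3, an activator of p38, had a log2 fold change of -0.22 ± 0.057 (edgeR adjusted p = 0.00256) and MAP3K3 of -0.15 ± 0.052 (edgeR adjusted p = 0.0259). DESeq2 called 2 of the 24, without MAP3K3 (adjusted p = 0.107). Of 11 dual-specificity phosphatase genes, which switch MAP kinases off, 9 were tested, 2 rose and 2 fell (44.4%), with a median of 0.044. DUSP4 averaged 81.5 ± 3.75 CPM in M1 EV and 122.6 ± 5.35 CPM in Ctrl, a log2 fold change of -0.59 ± 0.046 (edgeR adjusted p = 2.95e-13). DUSP5 was lower by a smaller step, with a log2 fold change of -0.27 ± 0.077 (edgeR adjusted p = 0.00664). DUSP1 rose by 0.48 ± 0.097 (edgeR adjusted p = 0.000162) and DUSP10 by 0.51 ± 0.14 on the log2 scale (edgeR adjusted p = 0.00577). DESeq2 called 3 of the 9, without DUSP10 (adjusted p = 0.0515). RNA levels do not show kinase activity, which was not measured.

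Other immediate-early genes moved both ways. Of 32 listed 27 were tested, of which 7 rose and 4 fell in M1 EV relative to Ctrl (40.7%, beside 28.1% of all genes), with a median log2 fold change of 0.07. DESeq2 called 11 as well. SGK1, a serum and glucocorticoid regulated kinase, averaged 77.3 ± 3.31 CPM in M1 EV and 33.2 ± 1.27 CPM in Ctrl (SD, n = 3 libraries each), a log2 fold change of 1.22 ± 0.055 (edgeR adjusted p = 1.94e-20). IER3 rose by 0.85 ± 0.045 on the log2 scale (edgeR adjusted p = 3.42e-18) and BHLHE40 by 0.82 ± 0.059 (edgeR adjusted p = 2.92e-14). PLK2, a stress-responsive polo-like kinase, averaged 33.8 ± 0.0979 CPM in M1 EV and 57.5 ± 4.85 CPM in Ctrl, a log2 fold change of -0.77 ± 0.06 (edgeR adjusted p = 2.82e-13).

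Of 30 genes known as AP-1 targets 23 were tested, of which 17 rose and 3 fell in M1 EV relative to Ctrl (87%, beside 28.1% of all genes), with a median log2 fold change of 0.66, beside 0.00077 over all genes tested. DESeq2 called 19 and gave MMP3, which edgeR called, no adjusted p. PLAU, the urokinase protease, averaged 689.4 ± 10.7 CPM in M1 EV and 369.8 ± 12 CPM in Ctrl (SD, n = 3 libraries each), a log2 fold change of 0.9 ± 0.032 (edgeR adjusted p = 7.29e-24). The cytokine genes CXCL8 and IL6, which NF-kB also controls, rose by 5.76 ± 0.089 on the log2 scale (edgeR adjusted p = 2.03e-36) and 2.05 ± 0.13 (edgeR adjusted p = 7.23e-16). CCND1 and S100A2 were among those that fell, and were named after their values were seen. The list was chosen with earlier results of these data known, so its direction is not independent evidence, and its relation to JUNB or MAFF was not tested.

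Across the 5 lists, M1 EV set against the other vesicles gave like counts. Against M0 EV and against M2 EV, edgeR called 25.3% and 24.6% of all genes tested. The AP-1 targets had 16 and 18 higher and 3 and 3 lower (82.6% and 91.3% called). The other basic leucine zipper genes had 6 and 7 higher and 2 and 1 lower (34.8% and 34.8%). MAP kinase genes had 2 and 1 higher and 2 and 2 lower (16.7% and 12.5%). Phosphatase genes had 2 and 2 higher and 2 and 2 lower (44.4% and 44.4%). Immediate-early genes had 8 and 9 higher and 4 and 4 lower (44.4% and 48.1%). DESeq2 called 18 and 18 AP-1 targets and 5 and 4 of the other basic leucine zipper genes in these comparisons. In M2 EV against Ctrl, in M0 EV against Ctrl and in M2 EV against M0 EV, edgeR and DESeq2 each called 0 genes of every list. For M2 EV against Ctrl, DESeq2 gave many of these genes no adjusted p, among them CEBPD, IER3 and CXCL8. Genes without one were counted as not called, so there the 0 of DESeq2 does not cover them. At an unadjusted p below 0.05, the immediate-early genes had the most each time. They had 6 of 27 in M2 EV against Ctrl (6.21% of all genes) and 4 of 27 in M0 EV against Ctrl (5.07% of all genes). Both are larger shares than over all genes, and the difference was not tested. In M2 EV against M0 EV they had 1 of 27 (3.41% of all genes). The other lists had 0 to 3, 0 to 2 and 0 genes in these comparisons.

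**Figure D4:**
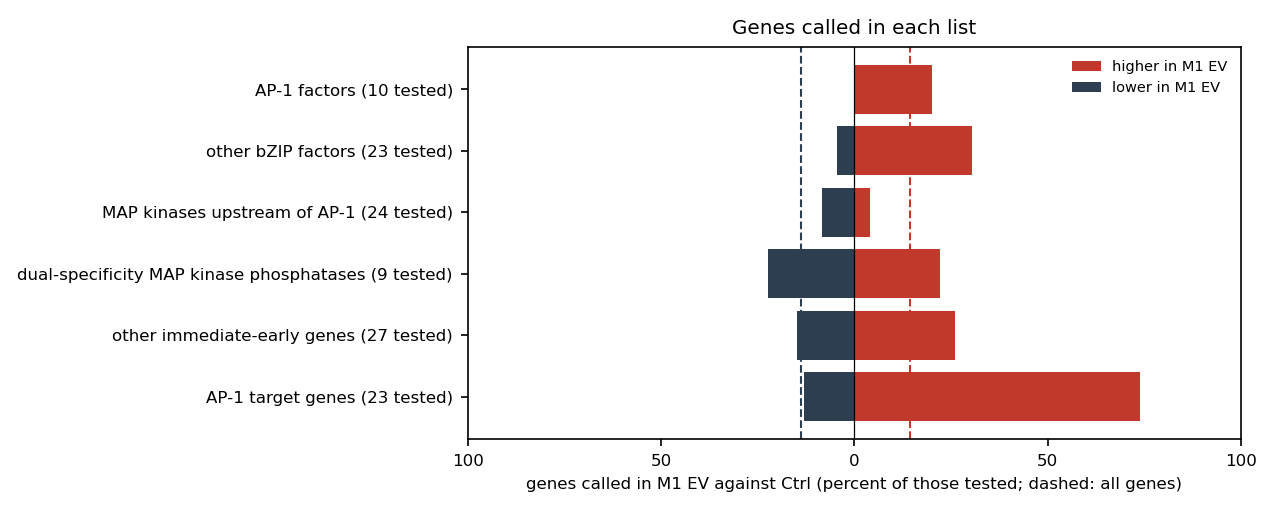
Genes called higher (right of 0) and lower (left of 0) in M1 EV against Ctrl, as a percent of those tested in each list; dashed lines give 14.3% higher and 13.7% lower over all genes tested. The 23 AP-1 target genes have the longest bar on the right, and the bar of the 10 AP-1 factors ends at 20% with none on the left.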

How the data were processed

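Directional poly(A) libraries were sequenced on a NovaSeq X Plus, per the labels' protocols. STAR 2.6.1b, HOMER 4.10 and hg38 are named, with no role, per the submitters' processing notes. The authors deposited expected counts, in steps of 0.5, for 70507 RefSeq transcripts in 12 libraries, without normalization; 51.3% of values above 0 had a fraction. The sources used here do not say if strand was used in counting.

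Transcripts were named with RefSeq GRCh38.p14 (69830) and GENCODE release 29 (343). The 334 left unnamed held 0.0584% to 0.0623% of each library's counts and were left out. Each gene was represented by its transcript with the highest sum, rounded to whole counts. One column is headed MV and not MV3, and was assigned to M0 EV 1, the library that no other column names. R 4.3.3 with edgeR 4.0.16 was run over all 12 libraries (default low-count filter, TMM factors 0.993 to 1.007, 1 term per group, 8 residual degrees of freedom) and tested 2-sided in 6 comparisons, with Benjamini-Hochberg adjustment over 13116 genes. The SE is the log2 fold change divided by the t value of its p. DESeq2 1.42.0 was an alternative. The test was also run on simulated data with the same spread for every gene, a simpler setting than these data, and no conclusion is drawn from it. CPM are TMM-scaled, and CPM per kilobase uses the longest GENCODE transcript paired with the gene's RefSeq transcripts. Intervals cover 95%.

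Members, gene lists and tests were chosen with earlier results of these data known. From each list, the text names the up to 4 called genes with the smallest adjusted p in M1 EV against Ctrl and a mean of at least 1 CPM, and for likeness the 5 genes closest to the member with the largest called rise. Some genes of the lists are not reported here by name.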

Additional observations from a re-analysis of the deposited data

How the results depend on the processing

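JUNB and MAFF passed the threshold under all 21 alternatives in M1 EV against Ctrl, M2 EV and M0 EV; against Ctrl the log2 fold change ran between 1.17 and 1.27 for JUNB (adjusted p 2.5e-69 to 1.32e-08) and between 0.42 and 0.52 for MAFF (2.15e-10 to 5.95e-05). FOSB passed under all 21 in M1 EV against M0 EV (0.84 to 1.2, highest adjusted p 0.0478), and FOS under none against Ctrl (adjusted p 0.059 to 0.244). Without M1 EV 2, FOSL1 passed against Ctrl (-0.11, adjusted p = 0.0346) and M0 EV (-0.12, adjusted p = 0.0164), and FOSB against M2 EV (0.71, adjusted p = 0.0447); without M1 EV 1, FOSL2 passed against M0 EV (0.12, adjusted p = 0.0189). A missing adjusted p of DESeq2 counted as not called. Of 1260 member values, 1215 kept direction and side of the threshold, 7 lost a call, 4 gained one and 34 changed sign, 0 of these with a call and each on leaving out 1 library. In those leave-outs the log2 fold change in M1 EV against Ctrl ran between -0.025 and 0.028 for JUN and between -0.11 and 0.022 for JUND. In M2 EV against Ctrl it ran between -0.28 and 0.19 for FOSB, -0.0086 and 0.014 for FOSL2, -0.21 and 0.075 for ATF3, and -0.0055 and 0.068 for MAFF. In M0 EV against Ctrl it ran between -0.088 and 0.11 for FOS, -0.07 and 0.043 for JUND, -0.036 and 0.18 for ATF3, and -0.0016 and 0.096 for MAFF. In M1 EV against M2 EV it ran between -0.031 and 0.079 for JUND and between -0.24 and 0.036 for ATF3. In M1 EV against M0 EV it ran between -0.079 and 0.032 for JUND. For M2 EV against M0 EV it ran between -0.011 and 0.044 for FOSL1, -0.012 and 0.011 for JUN, and -0.071 and 0.024 for MAFF.

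Counts over all genes moved more, and the cause was not tested. For M2 EV against Ctrl (6 genes) there were 2 with DESeq2, 31 with no low-count filter, 62 with only the groups compared, 3 with each gene's second transcript, 0 with transcripts summed and 0 to 48 when 1 library was left out, the highest without M0 EV 1. In M0 EV against Ctrl (2 genes) there were 0 with DESeq2, 53 with no filter, 0 with transcripts summed and 0 to 86 when 1 library was left out, the highest without M0 EV 1. M0 EV 2 and 3 differed least of all pairs within a group (chi-square per degree of freedom 1.04, against up to 2.33); summing them, a choice made after seeing the data, gave 1 gene. In M1 EV against M2 EV DESeq2 called 2105 genes, against 3227 with edgeR. In M2 EV against M0 EV (0 genes) there were 12 with no filter and 0 to 36 when 1 library was left out.

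The replicate numbers did not pair the samples: deviations of same-numbered libraries correlated at -0.0479 to 0.0896, and 4 of 12 libraries correlated best with their own number. With the replicate block, 20 genes were called in M0 EV against Ctrl and 1 in M2 EV against M0 EV; the number of AP-1 factors called was 2 in M1 EV against Ctrl, 3 against M2 EV and 3 against M0 EV, as without it. Depth limits FOS and FOSB most, at 12 to 30 counts a library.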
